A study of Mus musculus with 6 samples.

Results

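Matrix metalloproteinases, their tissue inhibitors and the related sheddase ADAM8 were examined in mouse immature dendritic cells with and without fluid shear stress (FSS). The genes were taken by symbol from the deposited expression table: Mmp8, Mmp9, Mmp12, Mmp13, Mmp14, Mmp19, Timp1, Timp2, Timp3 and Adam8. These are 10 of 18071 genes with values, and 9 of them were tested. Timp3 stayed under the minimum level for testing, which was 1 FPKM in at least 3 libraries (FPKM counts fragments relative to transcript length and library size, so levels can be set side by side between genes). The FSS group was 3 libraries of cells loaded with 10 dyn/cm2 for 3 h in a cone-plate device, in which a cone turning above the dish drags the medium over the cells. The static group was 3 libraries of cells kept without flow. In both groups the cells came from bone marrow of male C57BL/6 mice, 7 weeks old, cultured with GM-CSF at 20 ng/ml together with 10 ng/ml of IL-4 for 7 days and then selected for CD11c, the integrin subunit that marks dendritic cells. No genetic change was made, and the labels do not say whether a library holds 1 mouse, several mice or 1 culture. P-values therefore measure the spread between these libraries, which may be technical.

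Matrix metalloproteinases are zinc enzymes that are made as inactive precursors and cut collagen, elastin, other matrix proteins and many secreted or membrane-bound signals. TIMPs block them by filling the catalytic cleft, so that net activity depends on the balance of enzyme and inhibitor as well as on activation. In dendritic cells and macrophages these enzymes are known for their part in crossing matrix and basement membrane, and MMP12 is the elastase typical of macrophages. Messenger RNA levels say nothing about activation or activity.

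The libraries held 10390 to 10959 genes at 1 FPKM or more, and their summed FPKM ran from 413898 to 470596. Sequencing depth is unknown, because the files give no read counts. The same replicate numbers, 1 to 3, are used in both groups, and same-numbered libraries deviated together from their group means, so each difference is given from limma without and with the replicate number as a block. The number 3 libraries stood apart: allowing for group, number 3 was lower than numbers 1 and 2 for 29.3% of the 10899 genes and higher for 13.7% (limma, adjusted p under 0.05). The median difference of all genes tested, FSS minus static, was -0.12 on the log2(FPKM + 1) scale as deposited, and 0.02 after each library was divided by its median ratio to a common reference, here called scaling. Dendritic cell markers were present, with Cd74 at 4178 to 5319 FPKM under FSS and 4509 to 5283 FPKM in static cells. Itgax, the gene of CD11c, gave 397 to 502 FPKM under FSS and 502 to 599 FPKM in static cells. Flt3 and Cd209a stayed under 1 FPKM in every library.

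Without the block no gene of the set passed at an adjusted p under 0.05, neither higher nor lower, against 0.853% of all genes tested higher and 0.862% lower under FSS. At an unadjusted limma p under 0.05 there were 4 of 9, against 18.1% of all genes tested. With the replicate block 5 of 9 fell (Mmp12, Mmp13, Mmp14, Timp1 and Adam8), against a background of 25.1% of all genes tested, and none rose, against 7.73%. With the block and scaling together 4 of 9 fell, against 16.8%, and 1 rose (Mmp8), against 19.2%; Mmp12 no longer passed. In 3 of 9 genes (Mmp12, Timp1 and Adam8) every FSS library lay below every static one, against 20.4% of all genes tested, and in none above, against 5.1%. In 6 of 9 the FSS library was the lower of each pair, against 47.3%, and in 1, Mmp8, the higher, against 17.1%. The median difference of the 9 genes was -0.48 on the log2 scale (-0.31 after scaling), beside -0.12 for all genes tested (0.02 after scaling). Each of 3 further fits with the block, added after the data were seen, left out both libraries of 1 replicate number and gave 5 falls and no rise. The share of all genes called in those fits is not given here, so these counts cannot be set against a background. In bulk RNA, fewer cells of a type and less RNA per cell cannot be told apart, which holds for every difference given here.

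**Figure D1:**
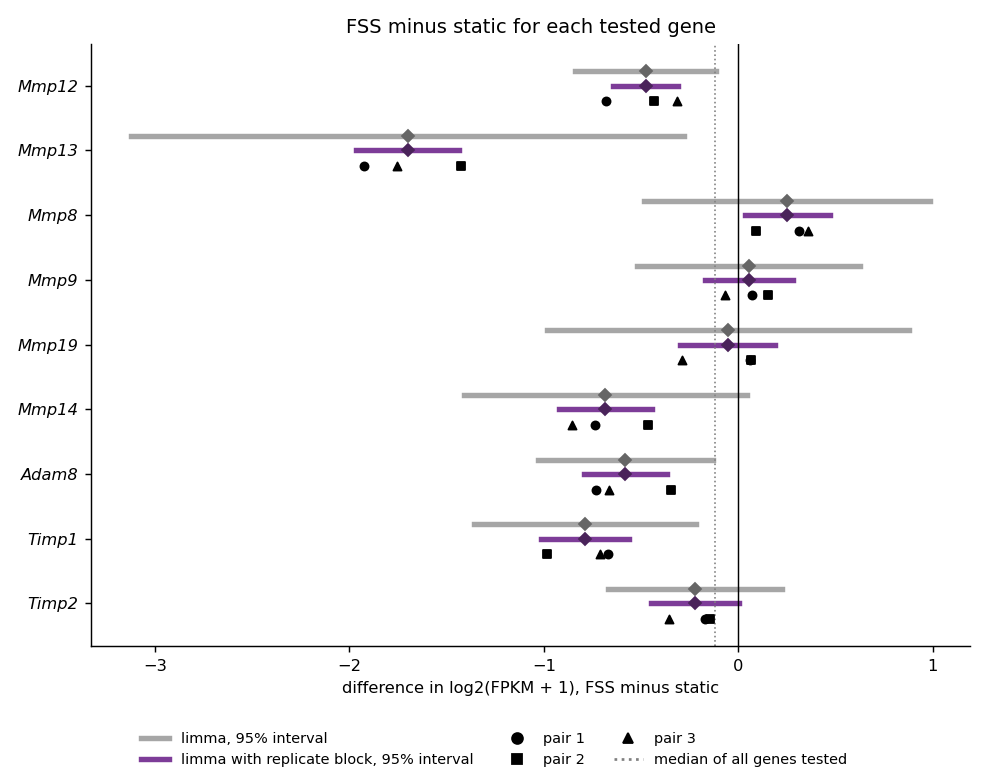
Difference in log2(FPKM + 1), FSS minus static, for the 9 genes tested, with the limma estimate and its 95% interval without the block (grey) and with the replicate block (purple), the difference in each same-numbered pair (black symbols) and the median of all genes tested (dotted line). The purple intervals of Mmp12, Mmp13, Mmp14, Adam8 and Timp1 lie wholly below 0, and those of Mmp9, Mmp19 and Timp2 include it. That of Mmp8 lies wholly above 0, though Mmp8 did not pass with the block (limma adjusted p = 0.0754). Intervals are not adjusted for the number of genes tested. The grey intervals of Mmp12, Mmp13, Adam8 and Timp1 also lie wholly below 0, though none of these genes passed without the block.

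Mmp12, the macrophage elastase, was by far the most abundant of the set and ranked 17 among all genes with values by its mean over the 6 libraries. It gave 1923, 1820.5 and 2004 FPKM in FSS replicates 1, 2 and 3, against 3079.8, 2462 and 2494 FPKM in static replicates 1, 2 and 3. All FSS libraries lay below all static ones, and static replicate 1 was the highest. The means were 1916 ± 92.2 FPKM under FSS and 2679 ± 348 FPKM in static cells (SD, n = 3 each), a ratio of 0.715. The log2 difference was -0.48 ± 0.16 (SE; limma adjusted p = 0.164), and Mmp12 fell with the block (adjusted p = 0.00343). With the block and scaling the difference was -0.31 ± 0.14 (limma adjusted p = 0.119). Mmp12 made up 88.9%, 92.4% and 92.6% of the summed FPKM of the 6 metalloproteinases in FSS replicates 1, 2 and 3, and 88.0%, 92.7% and 91.4% in static replicates 1, 2 and 3.

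Mmp13, a collagenase that cleaves fibrillar collagen, showed the lowest ratio of the set. It gave 54.1, 17.6 and 17.2 FPKM in FSS replicates 1, 2 and 3, against 207.9, 48.9 and 60.2 FPKM in static replicates 1, 2 and 3. Replicate 1 was the highest library of each group, and the groups overlapped only because FSS replicate 1 exceeded static replicate 2. Within the pairs the FSS library held 0.260, 0.360 and 0.285 of the static value. The log2 difference was -1.70 with a standard error of 0.61 without the block (limma adjusted p = 0.196) and 0.11 with it, where Mmp13 fell (adjusted p = 0.000617; after scaling, 4.1e-05). Without static replicate 1 the unblocked difference was -1.06, and without FSS replicate 1 it was -2.23. With the block and both replicate 1 libraries left out it was -1.59. No p is given for that fit, because with so few libraries it rests largely on the variance trend over all genes.

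The other secreted enzymes did not fall. Mmp8, the collagenase of neutrophil granules, gave 76.3, 45.4 and 39.9 FPKM in FSS replicates 1, 2 and 3, against 61.3, 42.6 and 30.9 FPKM in static replicates 1, 2 and 3. The groups overlapped, but the FSS library was the higher of each pair. Its log2 difference was 0.25 ± 0.32 (SE; limma adjusted p = 0.758, and 0.0754 with the block). Without FSS replicate 1 the unblocked difference was -0.022. It rose with the block and scaling (0.41 ± 0.11, SE; limma adjusted p = 0.0148).

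Mmp9, the gelatinase B that acts on denatured collagen and basement membrane, was low in both groups. It gave 15.0, 9.18 and 10.7 FPKM in FSS replicates 1, 2 and 3, against 14.2, 8.15 and 11.2 FPKM in static replicates 1, 2 and 3. The pairs did not share a direction, and the log2 difference was 0.05 with a 95% interval of -0.17 to 0.28 with the block (limma adjusted p = 0.693). Mmp19, a metalloproteinase that cuts basement membrane proteins, gave 34.6, 31.5 and 63.1 FPKM in FSS replicates 1, 2 and 3, against 33.1, 30.1 and 77.3 FPKM in static replicates 1, 2 and 3. Here replicate number 3 was high in both groups, by 1.09 ± 0.13 log2 over numbers 1 and 2 (SE; limma adjusted p = 0.00149). The FSS difference of Mmp19 was -0.05, with a 95% interval of -0.30 to 0.19 with the block, and turned to 0.11 with scaling.

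**Figure D2:**
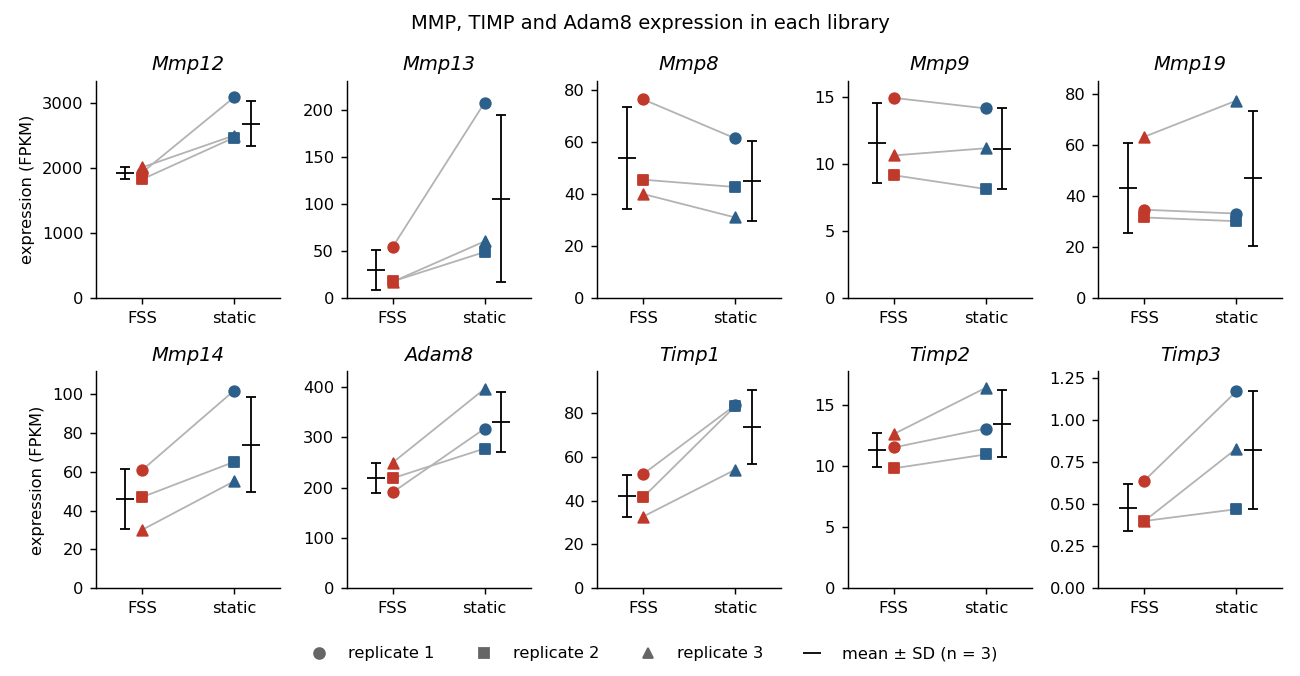
Expression in FPKM (linear axes from 0) of each gene in the 3 FSS and 3 static libraries, with symbols for the replicate number, grey lines joining same-numbered libraries and black bars for mean ± SD. FSS libraries of Mmp12, Adam8 and Timp1 lie below every static library, and Mmp19 is set apart by replicate 3 in both groups.

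Of the membrane-bound proteases of the set, Mmp14 and Adam8 both passed with the block only. Mmp14, the membrane-type metalloproteinase MT1-MMP that activates proMMP2 and cuts collagen at the cell edge, gave 60.7, 46.9 and 30.0 FPKM in FSS replicates 1, 2 and 3, against 101.7, 65.0 and 55.0 FPKM in static replicates 1, 2 and 3. The groups overlapped, while each FSS library was below its static partner, at 0.597, 0.721 and 0.546 of it. Its log2 difference was -0.68 ± 0.31 (SE; limma adjusted p = 0.307), and Mmp14 fell with the block (adjusted p = 0.00338; after scaling, 0.0026). The unblocked difference was -0.41 without FSS replicate 3 and -0.43 without static replicate 1. Replicate number 3 was also below numbers 1 and 2, at -0.68 ± 0.19 log2 (SE; limma adjusted p = 0.0209). Adam8, a membrane protease of leukocytes that sheds adhesion molecules and receptors from the surface, gave 190.4, 218.5 and 249.3 FPKM in FSS replicates 1, 2 and 3, against 316.9, 277.5 and 395.8 FPKM in static replicates 1, 2 and 3. The groups did not overlap. Its log2 difference was -0.58 ± 0.20 (SE; limma adjusted p = 0.172), and it fell with the block (adjusted p = 0.00399; after scaling, 0.0158).

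Among the inhibitors, Timp1, the secreted TIMP that also binds proMMP9, gave 52.1, 41.5 and 32.7 FPKM in FSS replicates 1, 2 and 3, against 83.5, 83.0 and 54.1 FPKM in static replicates 1, 2 and 3. All FSS libraries were below all static ones, though FSS replicate 1 and static replicate 3 lay close together. The means were 42.1 ± 9.7 FPKM under FSS and 73.5 ± 16.8 FPKM in static cells (SD, n = 3 each), a ratio of 0.573. The log2 difference was -0.79 ± 0.25 (SE; limma adjusted p = 0.149), and Timp1 fell with the block (adjusted p = 0.00193; after scaling, 0.00225). It was the 1 gene of the set that passed without the block when both number 3 libraries were left out (-0.83 ± 0.14, SE; limma adjusted p = 0.0336), against 3.34% of 10651 genes lower and 3.48% higher there. The gene span of Timp1 overlaps that of Syn1 in the RefSeq annotation, and Syn1 gave 4.35 to 8.32 FPKM under FSS and 6.65 to 10.8 FPKM in static cells. Overlap of exons was not checked, and use of strand in counting is not given. The spans of Mmp8 (Gm31751), Mmp19 (Tmem198b), Timp2 (Cep295nl) and Adam8 (Gm16201 and Mir7062) also overlap other genes. Of these, Gm31751, Gm16201 and Mir7062 are not among the genes with values.

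Timp2, which takes part with MMP14 in activating proMMP2, gave 11.5, 9.83 and 12.6 FPKM in FSS replicates 1, 2 and 3, against 13.1, 11.0 and 16.4 FPKM in static replicates 1, 2 and 3. The ranges overlapped, and the log2 difference was -0.22, with a 95% interval of -0.45 to 0.004 with the block (limma adjusted p = 0.115) and of -0.26 to 0.11 once scaled. Without the block it was -0.081 without static replicate 3, -0.13 without FSS replicate 2 and -0.35 without static replicate 2. Timp3, the TIMP that is bound to matrix, gave 0.64, 0.40 and 0.40 FPKM in FSS replicates 1, 2 and 3, against 1.17, 0.47 and 0.83 FPKM in static replicates 1, 2 and 3. These levels are low and overlap; in a fit without a minimum level the adjusted p was 0.475 (limma). Syn3, whose gene span overlaps that of Timp3 in the RefSeq annotation, gave 1.02 to 5.69 FPKM under FSS and 0.98 to 3.45 FPKM in static cells. Whether exons of the pair overlap was not checked, so it is not known whether reads could be shared.

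By their means over the 6 libraries the genes stood in the order Mmp12, Adam8, Mmp13, Mmp14, Timp1, Mmp8, Mmp19, Timp2, Mmp9 and Timp3. Mmp12 was above Adam8, and Adam8 above the next genes, in every library. The 5 genes from Mmp13 to Mmp19 had overlapping ranges, of 17.2 to 76.3 FPKM together under FSS and 30.1 to 207.9 FPKM in static cells, and their order changed between libraries. Timp2 and Mmp9 also overlapped. The 6 metalloproteinases summed to 2163, 1971 and 2165 FPKM in FSS replicates 1, 2 and 3, against 3498, 2656 and 2729 FPKM in static replicates 1, 2 and 3. The 3 TIMPs summed to 64.2, 51.7 and 45.7 FPKM in FSS replicates 1, 2 and 3, against 97.7, 94.4 and 71.3 FPKM in static replicates 1, 2 and 3. Both sums were lower in each FSS library than in its static partner.

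A ratio of 2 genes within a library does not depend on how libraries are scaled, and ratios to Timp1 were therefore compared as a description, with no test. Summed metalloproteinase over summed TIMP was 33.7, 38.1 and 47.4 in FSS replicates 1, 2 and 3, against 35.8, 28.1 and 38.3 in static replicates 1, 2 and 3. It was lower in pair 1 and higher in pairs 2 and 3. Mmp8 over Timp1 was 1.47, 1.09 and 1.22 in FSS replicates 1, 2 and 3, against 0.734, 0.513 and 0.572 in static replicates 1, 2 and 3. Mmp9 over Timp1 was 0.288, 0.221 and 0.326 in FSS replicates 1, 2 and 3, against 0.170, 0.0982 and 0.207 in static replicates 1, 2 and 3. For both of these ratios the FSS libraries lay above all static ones. Neither Mmp8 nor Mmp9 separated the groups by itself, while Timp1 was lower in every FSS library than in every static one. The share of all genes whose ratio to Timp1 separates the groups is not given here. Mmp13 over Timp1 was lower under FSS in each pair, at 1.04, 0.424 and 0.525 in FSS replicates 1, 2 and 3, against 2.49, 0.589 and 1.11 in static replicates 1, 2 and 3. Mmp14 over Timp1 had no common direction, at 0.919 to 1.17 under FSS and 0.784 to 1.22 in static cells. Over Timp2, with which MMP14 acts, Mmp14 was lower under FSS in each pair, at 5.26, 4.77 and 2.38 in FSS replicates 1, 2 and 3, against 7.77, 5.93 and 3.35 in static replicates 1, 2 and 3. Mmp19 over Timp1 was higher in each pair, at 0.664, 0.760 and 1.93 in FSS replicates 1, 2 and 3, against 0.396, 0.362 and 1.43 in static replicates 1, 2 and 3. Timp1 had a lower FSS to static ratio than Timp2 (0.573 against 0.840), so ratios to it are raised relative to ratios to Timp2.

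**Figure D3:**
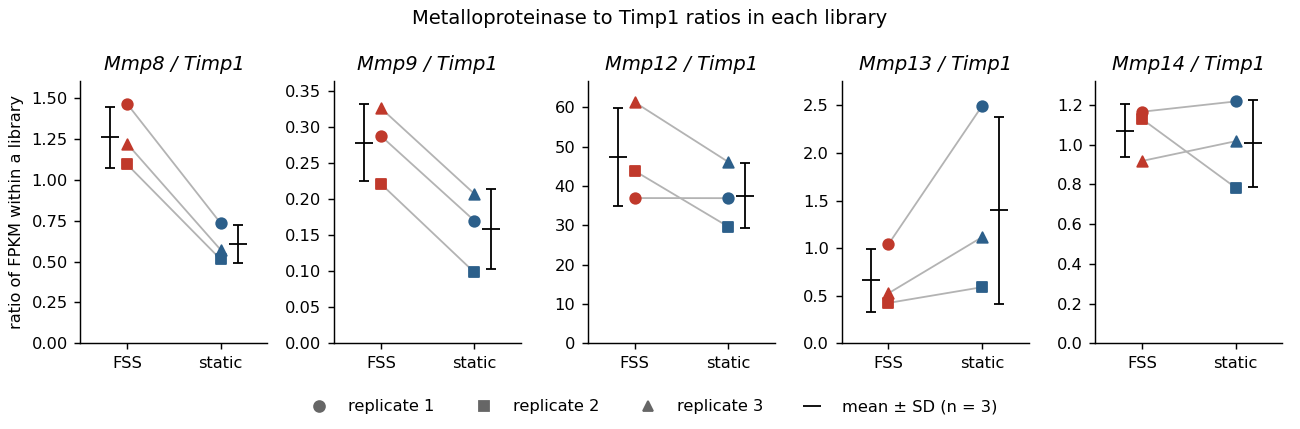
Ratio of the FPKM of 5 metalloproteinase genes to that of Timp1 within each library (linear axes from 0), with symbols for the replicate number, grey lines joining same-numbered libraries and black bars for mean ± SD. Mmp8 / Timp1 and Mmp9 / Timp1 are above all static libraries in the 3 FSS libraries, Mmp13 / Timp1 is lower under FSS in each pair, and Mmp14 / Timp1 crosses. Timp1 itself is lower in every FSS library than in every static one.

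Promoter sequence was compared because Mmp13, Mmp12, Mmp14, Timp1 and Adam8 moved the same way. AP-1 and ETS factors are also classical regulators of metalloproteinase and Timp1 promoters. RefSeq windows on GRCm38.p6 were found for 8 of the 10 genes (9 windows, 2 for Mmp12) and not used for Mmp9 and Mmp19. The 250 bases before each start were searched on both strands for AP-1 (TGANTCA), the PEA3-type ETS letters AGGAAG and the TATA box letters TATAAA, and no matches overlapped. AP-1 letters stood in 2 of the 9 windows and in 6.75% of 32851 windows genome-wide, ETS letters in 6 of 9 and 29.5%, and TATA letters in 1 of 9 and 12.4%. The 4 sequences below are the windows of the called genes that hold a match, with the upstream start for Mmp12 left out; they run 5′ to 3′ on the plus strand, the strand of these genes, and capitals mark the matches.
Mmp13, chr9:7272264-7272513: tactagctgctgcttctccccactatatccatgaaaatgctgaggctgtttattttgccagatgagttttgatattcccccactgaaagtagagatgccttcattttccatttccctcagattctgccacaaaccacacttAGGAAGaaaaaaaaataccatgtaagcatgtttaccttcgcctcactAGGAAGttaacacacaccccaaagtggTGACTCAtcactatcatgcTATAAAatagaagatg
Mmp12, chr9:7347124-7347373: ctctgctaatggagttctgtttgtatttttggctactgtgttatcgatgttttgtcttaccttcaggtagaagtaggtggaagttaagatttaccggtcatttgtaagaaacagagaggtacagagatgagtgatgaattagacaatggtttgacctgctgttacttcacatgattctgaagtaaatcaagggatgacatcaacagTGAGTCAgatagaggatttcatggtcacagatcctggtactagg
Mmp14, chr14:54431348-54431597: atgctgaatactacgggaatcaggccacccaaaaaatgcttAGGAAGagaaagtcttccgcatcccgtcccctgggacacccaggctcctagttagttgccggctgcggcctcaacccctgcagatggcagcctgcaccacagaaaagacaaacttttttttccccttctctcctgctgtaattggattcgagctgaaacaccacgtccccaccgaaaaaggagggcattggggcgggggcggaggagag
Timp1, chrX:20869916-20870165: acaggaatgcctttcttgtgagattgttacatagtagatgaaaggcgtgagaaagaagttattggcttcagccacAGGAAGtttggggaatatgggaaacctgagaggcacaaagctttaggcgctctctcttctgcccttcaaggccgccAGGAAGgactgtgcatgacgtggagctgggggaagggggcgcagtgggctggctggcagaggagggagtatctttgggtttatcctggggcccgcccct

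Starts are those of RefSeq; in 7 of the 9 windows the last 25 bases before that start lie in a GENCODE M21 transcript of the same gene, so distances depend on the annotation. In the Mmp13 window the AP-1 letters begin 35 bases before the start, between ETS letters at 62 and the TATA letters at 16. In the Mmp12 window shown, the AP-1 letters begin 44 bases before the start, and its other window holds ETS letters only. The Mmp14, Timp1, Mmp8 and Timp3 windows hold ETS letters and no AP-1 match, and the Adam8 and Timp2 windows hold none of the 3 motifs. Of these genes Adam8 fell with the block, and Mmp8 did not. A match of letters is a description of the sequence and not a bound site.

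Genes for factors known to drive these promoters went in both directions. Of 19 tested in this list of 22, none passed without the block (4 at an unadjusted limma p under 0.05), while 4 rose and 3 fell with it, and 7 rose and 2 fell with the block and scaling. Over all genes tested 18.1% had an unadjusted p under 0.05, 7.73% rose and 25.1% fell with the block, and 19.2% rose and 16.8% fell with scaling. The list median was -0.02 (0.13 after scaling). Of the AP-1 subunits, Jun gave 60.4 ± 5.89 FPKM under FSS and 42.5 ± 3.04 FPKM in static cells and rose with the block (limma adjusted p = 0.0129). Fosl2 (FRA2) gave 38.3 ± 6.25 FPKM under FSS and 70.4 ± 13.1 FPKM in static cells and fell with it (adjusted p = 0.00195). Fosl1 (FRA1) stayed low, at 0.18 to 0.24 FPKM under FSS and 0.53 to 1.16 FPKM in static cells, and was not tested. Fosb was low and rose with the block, at 2.93 ± 1.01 FPKM under FSS and 2.10 ± 1.24 FPKM in static cells (limma adjusted p = 0.0498). Jund and Fos did not pass with the block (limma adjusted p = 0.0705 and 0.743). With the block and scaling Jund rose (limma adjusted p = 0.00553). Ets2 rose with the block, at 39.3 ± 4.13 FPKM under FSS and 25.7 ± 5.56 FPKM in static cells (SD, n = 3 each for all; limma adjusted p = 0.0101). Junb and Nfkb1, the most abundant of the list, did not pass (limma adjusted p = 0.335 and 0.439 with the block). Jun, Jund, Fos, Fosb, Fosl2, Fosl1 and Ets2 were taken up after their values were seen.

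Most of the remaining metalloproteinases and inhibitors were near silent. The 20 further genes (17 with values) include the inhibitor genes Timp4, Reck and A2m. Of the 20, 13 stayed under 1 FPKM in every library and 4 were tested. None passed without the block (0 at an unadjusted limma p under 0.05, against 18.1% of all genes tested). With the block 1 fell (25.1% of all genes tested), and 2 rose and 1 fell with the block and scaling (19.2% and 16.8%). Mmp16, a membrane-type enzyme, gave 134.0, 123.7 and 61.1 FPKM in FSS replicates 1, 2 and 3, against 109.4, 106.2 and 55.1 FPKM in static replicates 1, 2 and 3. It was higher in each pair (limma with the block, adjusted p = 0.0765; after scaling, 0.0102). Mmp25, the leukocyte membrane-type enzyme MT6-MMP, averaged 16.1 ± 6.21 FPKM under FSS and 22.4 ± 8.94 FPKM in static cells (SD, n = 3 each) and fell with the block (limma adjusted p = 0.0217). Mmp2, the target of the MMP14 and TIMP2 complex, was low at 2.99 to 3.71 FPKM under FSS and 2.43 to 2.78 FPKM in static cells (taken up after its values were seen; limma with the block, adjusted p = 0.0608; after scaling, 0.00718). On chromosome 9 Mmp1b, Mmp3 and Mmp10 lie between Mmp12 and Mmp8 and gave 0 to 0.05 FPKM in all 6 libraries.

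In the list of 29 ADAM and ADAMTS genes and their regulators 11 were tested and none passed without the block. At an unadjusted limma p under 0.05 there was 1, against 18.1% of all genes tested. With the block 2 rose and 1 fell (7.73% and 25.1% of all genes tested), and 4 rose and 1 fell with the block and scaling (19.2% and 16.8%). Adam17, the sheddase of TNF, gave 90.6, 72.0 and 39.1 FPKM in FSS replicates 1, 2 and 3, against 47.1, 45.3 and 29.5 FPKM in static replicates 1, 2 and 3. Each FSS library was above its static partner, and Adam17 rose with the block (0.66 log2; limma adjusted p = 0.0055, against 0.347 without). Adam10, the sheddase of Notch and cadherins, chosen with its values known, averaged 33.7 ± 4.65 FPKM under FSS and 47.6 ± 3.01 FPKM in static cells (SD, n = 3 each) and fell with the block (limma adjusted p = 0.00705). Rhbdf2, the iRhom2 partner of ADAM17, did not pass (limma adjusted p = 0.796 with the block).

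Of 20 genes for activation, docking and clearance 15 were tested. None passed without the block (1 at an unadjusted limma p under 0.05, against 18.1% of all genes tested). With the block 4 fell and none rose, and 4 rose and 1 fell with the block and scaling. Over all genes tested 25.1% fell and 7.73% rose with the block, and 16.8% fell and 19.2% rose with scaling, so 4 of 15 lower is near the share of all genes. The falls with the block were Cd44, a docking receptor of MMP9, Furin, the convertase that activates proMMP14, the tetraspanin Cd151 and the syndecan Sdc4, of which Cd151 alone fell with scaling too (limma adjusted p = 0.00459). Cd151 averaged 7.57 ± 1.98 FPKM under FSS and 11.9 ± 3.03 FPKM in static cells (SD, n = 3 each). These 4 were named after their values were seen. The most abundant of the list, the invariant chain gene Cd74 and the granule proteoglycan gene Srgn, did not pass with the block (limma adjusted p = 0.24 for Cd74 and 0.0732 for Srgn).

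Of 27 matrix protein genes 5 were tested, and 18 stayed under 1 FPKM in every library. None passed without the block (3 of 5 at an unadjusted limma p under 0.05, against 18.1% of all genes tested). With the block 2 rose and 1 fell (7.73% and 25.1% of all genes tested), as they did in number with scaling (19.2% and 16.8%). Spp1, the osteopontin gene and an MMP substrate, rose with the block, at 231 ± 25.1 FPKM under FSS and 172 ± 16.8 FPKM in static cells (limma adjusted p = 0.00882). Fn1, fibronectin, followed the replicate number, at 477, 248 and 138 FPKM in FSS replicates 1, 2 and 3, against 480.1, 239 and 162 FPKM in static replicates 1, 2 and 3. Vcan, the gene of the proteoglycan versican, chosen with its values known, fell with the block, at 24.8 ± 13.4 FPKM under FSS and 52.7 ± 20.9 FPKM in static cells (SD, n = 3 each; limma adjusted p = 0.00104).

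**Figure D4:**
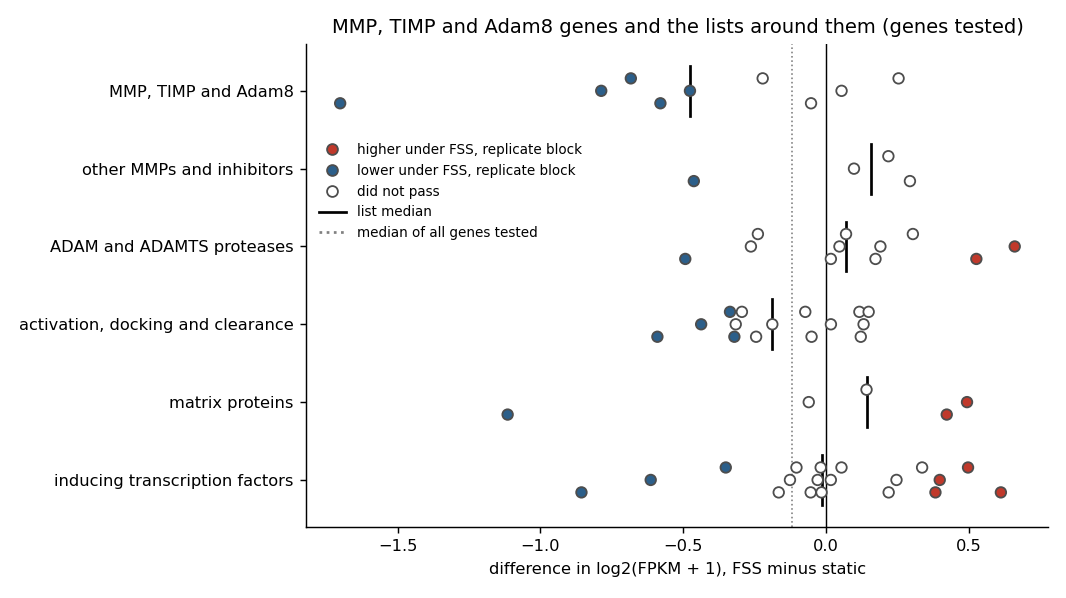
Difference in log2(FPKM + 1), FSS minus static, for every tested gene of the set and of the 5 lists around it, coloured by the call with the replicate block (red higher, blue lower, open not passing), with list medians (black lines) and the median of all genes tested (dotted line). In the MMP, TIMP and Adam8 set 5 of 9 genes are called lower and none higher, beside 25.1% lower and 7.73% higher of all genes tested; the activation, docking and clearance list has 4 of 15 lower, near that share.

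Genes with the most similar pattern were sought for Mmp12, the highest by level, and Timp1, the one with the smallest p without the block (with it, Mmp13 had the smallest), by Pearson correlation of log2(FPKM + 1) over the 6 libraries among genes tested. For Mmp12 these were Ddx4 (0.985), Efcab12 (0.980) and B3glct (0.977), all low, with Ddx4 at 0.42 to 0.61 FPKM under FSS and 1.16 to 2.44 FPKM in static cells. For Timp1 they were Procr, the endothelial protein C receptor gene, Pus7 and Ppp3cc (0.993 each), with Procr at 17.6 to 21.5 FPKM under FSS and 22.5 to 28.0 FPKM in static cells. The points of each correlation share libraries, groups and replicate numbers, and no p is given.

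Markers of other cells that express these proteases varied too, and their part in the differences above was not tested. Of the 10 neutrophil markers 8 were tested, and their summed FPKM was 273, 409 and 437 in FSS replicates 1, 2 and 3, against 298, 486 and 525 in static replicates 1, 2 and 3. This sum was lowest in replicate 1 of each group, where Mmp8 and Mmp9 were highest. S100a8 and S100a9 made up most of the sum, while Csf3r, the G-CSF receptor gene of the same list, was highest in replicate 1, at 14.9, 8.08 and 3.11 FPKM in FSS replicates 1, 2 and 3, against 7.99, 5.41 and 2.21 FPKM in static replicates 1, 2 and 3. Ly6g gave 0.34 to 1.33 FPKM under FSS and 0.62 to 1.00 FPKM in static cells, and of the 8 genes 1 rose (Csf3r) and 1 fell (S100a8) with the block. The 9 macrophage markers, all tested, summed to 596 to 734 FPKM under FSS and 515 to 618 FPKM in static cells. With the block 2 rose (Mertk and Adgre1) and 1 fell (Fcgr1), against 7.73% higher and 25.1% lower of all genes tested. With the block and scaling 5 of these macrophage markers rose and 1 fell, against 19.2% and 16.8%. The 8 osteoclast markers summed to 390 to 521 FPKM under FSS and 459.6 to 517 FPKM in static cells. Calcr and Oscar stayed under 1 FPKM, and of 6 tested Acp5 rose and the fusion genes Dcstamp and Ocstamp fell with the block, with Ocstamp at 10.8 to 39.5 FPKM under FSS and 58.5 to 121 FPKM in static cells. Of the 9 dendritic cell markers 7 were tested, and they summed to 5968 to 7340 FPKM under FSS and 6940 to 7608 FPKM in static cells. With the block 5 of them fell (Itgax, Zbtb46, Ccr7, Irf4 and Batf3) and none rose, against 25.1% lower and 7.73% higher of all genes tested. With the block and scaling 3 fell, and Itgax and Batf3 did not pass (limma adjusted p = 0.495 and 0.184). Irf4 fell without the block too, at 88.3, 123.5 and 106.7 FPKM in FSS replicates 1, 2 and 3, against 430.5, 325.8 and 407.3 FPKM in static replicates 1, 2 and 3 (limma adjusted p = 0.0133). The 9 stromal markers (8 with values) summed to 3.61 to 5.98 FPKM under FSS and 3.38 to 7.74 FPKM in static cells. Thy1 gave 1.49 to 5.26 FPKM under FSS and 2.66 to 7.41 FPKM in static cells and Pdgfrb 0.55 to 1.77 FPKM under FSS and 0.22 to 0.63 FPKM in static cells, while Dcn was listed at 0 in all libraries. Thy1 was the 1 tested and fell with the block. With the block 1 of 4 endothelial markers tested rose and 1 fell, none of 4 for eosinophils, basophils and mast cells passed, and the 1 lymphocyte marker tested, Gzma, fell. The same shares of all genes stand beside each marker list. With the block and scaling 3 of 8 neutrophil markers rose and 1 fell, and 3 of 6 osteoclast markers rose and 2 fell. Of the endothelial markers 2 rose and 1 fell there, and 1 of 4 for eosinophils, basophils and mast cells rose. Thy1 and Gzma fell with scaling too.

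Genes of the set also differed by replicate number, about as often as genes at large. Between number 3 and numbers 1 and 2, allowing for group, 2 of 9 genes were higher in number 3 (Mmp19 and Adam8) and 3 were lower (Mmp8, Mmp14 and Timp1), against 13.7% higher and 29.3% lower of all genes tested. The log2 differences of the lower ones ran from -0.68 to -0.55, and that of Adam8 was 0.35 ± 0.11 (SE; limma adjusted p = 0.0321). Mmp12 did not differ beyond its error (-0.02 ± 0.11, SE). Number 3 was singled out with the libraries' values known.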

How the data were processed

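The measurement was bulk RNA-seq of 3 FSS and 3 static libraries. The authors deposited 1 normalized value per gene and library, headed only as expression per the file headers and treated here as FPKM. The unit is inferred: values multiplied by GENCODE M21 transcript lengths sum to nearly the same total in every library, as FPKM does (0.552 to 0.609 of the total that FPKM defines with median lengths and 1.14 to 1.28 with longest, over 17400 genes). HISAT and Bowtie2 are named, with no version or role, per the submitters' processing notes. For the genome build, the annotation and strand use, nothing is given in the sources used here. Of 22899 rows, 4828 were blank in all libraries, and 26 symbols had been turned into dates; the 6 per-sample files hold the same values as the series table. Depth is unknown, so no counting interval can be given.

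The 10899 genes that reached 1 FPKM in 3 or more libraries were tested on log2(FPKM + 1) with limma 3.58.1 in R 4.3.3, with a mean-variance trend and Benjamini-Hochberg adjustment over all of them and a threshold of 0.05; this scale understates changes of low genes. The procedure was checked on simulated data. Replicate numbers come from the sample titles. Deviations of same-numbered libraries from their group means correlated at 0.79, 0.66 and 0.87, and those of differently numbered libraries at -0.78 to 0.28. A minimum of 0.1 was used, which FSS replicate 1 with static replicate 2 (0.28) and FSS replicate 2 with static replicate 1 (0.22) also exceeded. The numbers were taken to pair the libraries, from the data and not from a stated shared origin. The main fit has no block. Alternatives were the replicate block, a threshold of 0.01, a pseudocount of 0.1, no filter, median-ratio scaling, equal totals, the block with scaling, leaving out each library, and leaving out both number 3 libraries. The genes and lists were chosen with earlier results of these data known. Beyond the 10 genes, the text names the genes of each list that passed without the block (up to 4) and the 2 with the highest mean, and the 3 genes most correlated with the most abundant gene of the set and with the one of smallest p without the block; others are marked as chosen with their values known, and markers are named from lists of cell type markers.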

Additional observations from a re-analysis of the deposited data

How the results depend on the processing

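No gene of the set passed without the replicate block under a pseudocount of 0.1, no filter, median-ratio scaling or equal totals, or without any single library. A threshold of 0.01 could give no call either, because it is a stricter cut on the same main fit. With the replicate block 5 genes of the set were lower; with the block and median-ratio scaling 4 were lower and 1 higher. Among alternatives chosen after seeing the data, the block with equal totals gave 5 lower and 1 higher, and the block without replicate 1, 2 or 3 of both groups gave 5 lower each time. For these added fits the share of all genes called is not given here. Without replicate 3 of both groups and with no block, 1 was lower, so the range over left-out libraries was 0 to 1. Over the same settings the counts higher and lower with the block, then with block and scaling, were as follows. Other MMPs and inhibitors had 0 and 1, then 2 and 1. ADAM and ADAMTS proteases had 2 and 1, then 4 and 1. Activation, docking and clearance had 0 and 4, then 4 and 1. Matrix proteins had 2 and 1, then 2 and 1. Inducing transcription factors had 4 and 3, then 7 and 2. Leaving out libraries moved these lists between 0 and 2 calls. Over all genes 187 passed without the block, 3581 with it and 151 at a pseudocount of 0.1. The causes were not tested.

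Of 162 alternative values of single genes, 118 kept direction and side of the threshold, 32 passed where the main fit did not and 12 reversed. Part of this tally was fixed in advance. The threshold of 0.01 uses the main fit and could not add a call. The replicate block and the fit with no filter keep the main difference and could not reverse it. The 32 include block fits without both libraries of 1 replicate number, whose p rests largely on the variance trend. Mmp19, at -0.05, became 0.11 with median-ratio scaling with or without the block, 0.012 with equal totals with or without the block, 0.065 without replicate 3 of both groups with or without the block, and ran from -0.36 to 0.37 over left-out libraries (0.068 without FSS replicate 1, 0.13 without FSS replicate 2). Mmp8 ran from -0.022 (without FSS replicate 1) to 0.50. Mmp9 ran from -0.14 (without static replicate 2) to 0.23, with -0.13 without FSS replicate 1. Over left-out libraries Mmp14 ran from -0.91 to -0.41, Timp2 from -0.35 to -0.081 and Mmp13 from -2.23 to -1.06. The number of libraries, 3 in each group, limits the precision.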
